A study of Mus musculus with 4 samples.

Results

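A pair of liver samples was compared: the liver of wild-type mice on a high-fat diet and the liver of catalase knockout mice on a normal diet. They are 2 of the 4 liver arrays of a design that crosses genotype with diet, and the difference between them was taken directly, with no use of the wild-type normal-diet array as a shared baseline. All the mice were male, were 29 weeks of age when the diets began and 40 weeks when they ended, and so were fed for 11 weeks. The wild-type high-fat liver came from wild-type mice given a diet with 60.3% of its calories from fat, and the knockout normal-diet liver from catalase knockout mice given a diet with 18% of its calories from fat. The other 2 arrays, a wild-type liver on the normal diet and a knockout liver on the high-fat diet, are quoted for position only. Each group has 1 array, and the sources used here name neither the strain of the mice nor the Cat allele, nor whether a sample was 1 animal or a pool. The compared arrays differ in genotype and in diet at once, so the effects of either on their difference cannot be told apart from these 2 arrays alone. The amount of fat in these livers was not analysed here.

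Hepatic steatosis is the storage of triglyceride in droplets inside hepatocytes. Fat reaches the liver from the diet and from adipose tissue, is made there from sugars under the transcription factors SREBP-1c and ChREBP, and is burned in mitochondria and peroxisomes under the fatty acid receptor PPARalpha. Catalase is the peroxisomal enzyme that splits hydrogen peroxide, a product of peroxisomal fatty acid oxidation, into water and oxygen. The question put to the 2 arrays is where a liver loaded by diet and a liver without catalase carry the same messages and where they differ.

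By the scanner's own flag, 23760 of the 39429 probes stood well above background in the wild-type high-fat liver and 23998 in the knockout normal-diet liver. No spot was saturated. Levels below are log2 processed signals minus the 75th percentile of the array, so a level of 0 is that percentile, and a difference is wild-type high-fat minus knockout normal-diet. The ± after a difference is the error of the scanner's own error model, which covers spot measurement and not the spread between animals. Its median over the genes measured on both arrays was 0.20 on the log2 scale. It is not printed beside every difference, and a difference printed without it may have had another value. With 1 array per group a difference has no replicate check and no p-value, so a gene is called higher or lower by size alone, at 2-fold or more. A gene measured on 1 array only was called when its bound against the dim array reached 2-fold, and its size is then given as a lower limit. A gene is called alike when the 95% interval that the scanner error gives its difference stayed within 2-fold.

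The gene that was knocked out was examined first. Cat was at 4.75 in wild-type high-fat liver and at 1.13 in knockout normal-diet liver, with 4.89 in wild-type normal-diet and 0.95 in knockout high-fat liver. Both wild-type arrays were high and both knockout arrays were low. The difference was 3.62 ± 0.20, or 12.3-fold, and the other Cat probe gave 4.03. Both probes kept signal above background in the knockout. Whether they lie within the deleted part is not given, so the values match the labels and do not measure how much intact transcript was present.

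The livers were alike over most of the transcriptome. Of 14419 genes well above background on at least 1 of the arrays, 278 were higher in wild-type high-fat liver, which is 1.93%, and 183 were lower, which is 1.27%. Those shares are the background for the counts of called list members below. Of the 13675 genes measured on both arrays, 12363 were alike, which is 90.4%, 280 differed by 2-fold and 1032 lay between these rules. The median difference over the measured genes was -0.02. Bounds account for 106 of the higher and 75 of the lower genes. At 4-fold or more there were 15 higher and 11 lower genes. Of the 50 called genes with a further measured probe, that probe also differed by 2-fold the same way for 20.

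These calls are sensitive to how dim signal is treated. With normexp background correction in place of the scanner's processed signal, 110 genes were higher and 88 lower. An additive model of genotype and diet, which takes the interaction as error, was fitted with limma to all 4 arrays for 14343 genes. In it 0 genes passed a Benjamini-Hochberg adjusted 0.05 in either direction. An unadjusted p under 0.05 was found for 379 higher and 378 lower genes. With no effect at all, a share of 0.05 of the genes fitted would be expected to have one.

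**Figure D1:**
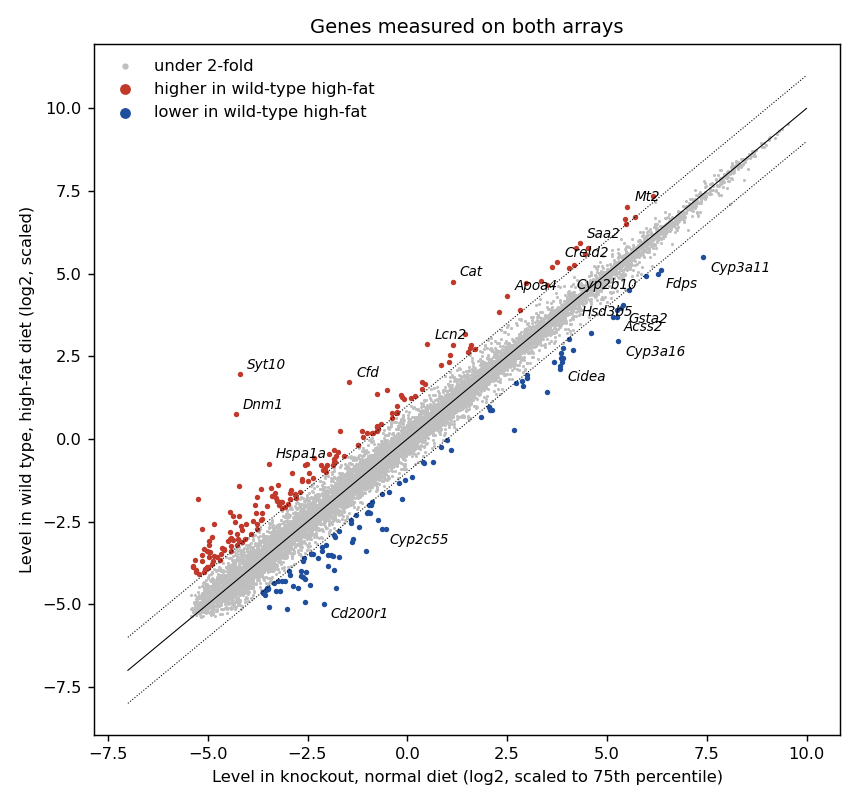
Level of each of 13675 genes in knockout normal-diet liver (x axis) and wild-type high-fat liver (y axis), both log2 and scaled to the 75th percentile of the array. The solid line marks equal levels and the dotted lines 2-fold either way. The 172 red and 108 blue points are the genes measured on both arrays that differ by 2-fold, and Cat, Syt10 and Dnm1 lie far above the line.

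For the 280 genes that differed by 2-fold on both measured arrays, the 2 arrays left out of the comparison show whether the difference went with diet, with genotype or with 1 liver. The level of each was placed on a scale where 0 is the knockout normal-diet level and 1 the wild-type high-fat level, and cut at the midpoint of 0.5. A gene follows diet when the wild-type normal-diet level lies nearer the knockout normal-diet end and the knockout high-fat level nearer the wild-type high-fat end. This held for 85 genes, or 30.4%, of which 42 were higher and 43 lower in wild-type high-fat liver. A gene follows genotype when the ends are exchanged, which held for 54 genes, or 19.3%, with 38 higher and 16 lower. For 66 genes, or 23.6%, both further arrays lay nearer the knockout normal-diet level, and this class is called wild-type high-fat apart. For 75 genes, or 26.8%, both lay nearer the wild-type high-fat level, and this class is called knockout normal-diet apart. The cut takes no account of how far a level lies beyond either end. Cyp4a14 falls in the class wild-type high-fat apart. Its wild-type normal-diet level of 1.47 nevertheless lay farthest from the rest, which were at 5.60, 4.46 and 4.75. These classes describe 4 arrays, and a gene near the midpoint can change class with a small shift in level. Both positions lay below 0.25 or above 0.75 for 47 of the genes that follow diet, 29 of those that follow genotype, 34 of those with wild-type high-fat liver apart and 35 of those with knockout normal-diet liver apart. That range includes levels beyond the ends. Cidea, which follows genotype, had positions of 3.10 and -0.26, and its wild-type arrays were at -1.21 on normal diet and 2.20 on high-fat diet.

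**Figure D2:**
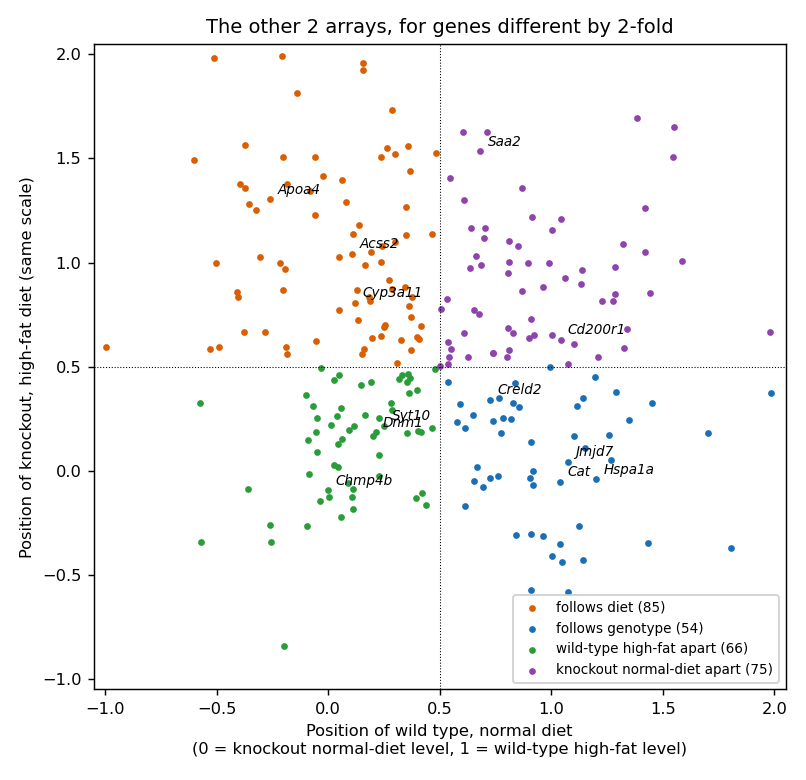
Position of the wild-type normal-diet array (x axis) and of the knockout high-fat array (y axis) for genes differing by 2-fold, on a scale where 0 is the knockout normal-diet level and 1 the wild-type high-fat level. Each of 256 points is a gene, coloured by class, and 24 genes outside the axes are not drawn; Cat, Jmjd7 and Hspa1a lie low on the right among the genes that follow genotype, and Apoa4 high on the left among those that follow diet.

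Of 22 measured lipid droplet genes 17 were alike, which is 77.3% against 90.4% over all genes, 0 were higher and 1 measured gene was lower, and the median was -0.06. Plin2, the main droplet coat protein of hepatocytes, was at 6.09 in wild-type high-fat and 6.15 in knockout normal-diet liver, a difference of -0.06, and was at 5.86 in wild-type normal-diet liver. The next 4 genes were chosen for being alike on the pair and at least 2-fold from the wild-type normal-diet array, so that their pattern is a description and says nothing of the rest of the list. Mogat1, an acyltransferase of triglyceride synthesis, was at -0.18 and -0.03, against -2.29 in wild-type normal-diet liver and 0.68 in knockout high-fat liver. G0s2, an inhibitor of the lipase ATGL, was at 2.89 and 3.08, against 1.76 and 3.58. Vldlr, a receptor for triglyceride-rich lipoproteins, was at -0.32 and -0.66, against -3.03 and -0.23. Cd36, a fatty acid transporter, was at 1.73 and 1.40, against -0.12 and 2.15. All 4 lay above the wild-type normal-diet level in both livers, and their differences within the pair ran from -0.19 to 0.34.

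A few droplet and lipase genes differed. Cidea, which drives the fusion of small droplets into large ones and is best known from brown fat, was at 2.20 in wild-type high-fat and 3.82 in knockout normal-diet liver, with -1.21 in wild-type normal-diet and 4.23 in knockout high-fat liver. Both knockout arrays were above the wild-type high-fat array, and the difference was -1.62 ± 0.20. Its relative Cidec was at 3.44 and 2.75, a difference of 0.69 the other way, and was named after its values were seen. Plin4, a droplet coat protein, differed by 0.96 and Fitm2, a protein that buds droplets from the endoplasmic reticulum, by 0.93 ± 0.21, neither reaching 2-fold. Lipe, the hormone-sensitive lipase, was lower in wild-type high-fat liver, at -4.02 against -2.53, a difference of -1.48 ± 0.25. Pnpla3, a lipase homologue, was measured only in knockout normal-diet liver of the pair and was at least 2.1-fold lower in wild-type high-fat liver. Of 24 genes of lipid uptake and lipases 1 was higher, 1 lower and 19 alike, and the higher one was Fabp2, the intestinal fatty acid-binding protein, at 6.50 against 5.48, a difference of 1.02. Both Lipe and Fabp2 were under 2-fold in some of the settings tried. The median of that list was -0.04.

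Apoa4, an apolipoprotein of triglyceride-rich particles, was the 1 called gene of 17 in the apolipoprotein list. That list also holds the related genes Apobec1, Mttp, Lcat and Pltp. It was at 4.33 in wild-type high-fat and 2.5 in knockout normal-diet liver, with 2.02 in wild-type normal-diet and 4.89 in knockout high-fat liver. Both high-fat arrays were above both normal-diet arrays, and the difference was 1.83 ± 0.20. Of the other genes of the list 15 were alike, Pltp differed by -0.82 and was not called, and the median of the list was 0.04.

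Cholesterol synthesis was the list with the lowest median. Of 28 measured genes of cholesterol synthesis and uptake 26 had a lower level in wild-type high-fat liver, the median difference was -0.57 against -0.02 over all genes, 3 were called lower and 0 higher, and 14 were alike. Over all genes tested 1.27% were lower. Fdps, the farnesyl diphosphate synthase, was at 5.0 against 6.28, Nsdhl, a sterol dehydrogenase, at 0.88 against 2.06, and Sqle, the squalene epoxidase, at 1.75 against 2.88. Their differences were -1.28, -1.18 and -1.13. All 3 follow diet: Sqle, for example, was at 4.07 in wild-type normal-diet and 1.16 in knockout high-fat liver. Pmvk, Hmgcs1 and Idi1 differed by -0.99, -0.90 and -0.85 and did not reach 2-fold on the probe used. The other measured probe of Pmvk gave -1.02.

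De novo lipogenesis showed a related pattern, with a median of -0.36 over 26 genes, 19 of them negative and 17 alike. Acss2, which makes acetyl-CoA from acetate, was at 3.70 against 5.24, a difference of -1.54. Elovl3, a fatty acid elongase, differed by -1.07, at 1.93 against 3.00. Both follow diet. Me1, the malic enzyme that supplies NADPH for fat synthesis, was at 4.05 in wild-type high-fat and 5.41 in knockout normal-diet liver, with 4.37 in wild-type normal-diet and 4.94 in knockout high-fat liver. Its difference was -1.36, and both knockout arrays were above both wild-type arrays. The central enzymes were closer, with -0.90 for Acly, -0.60 for Fasn and -0.50 for Scd1, and Srebf1, the gene of the regulator SREBP-1, had 0.67. None of these 4 reached 2-fold on the probe used, but the other measured probe of Acly gave -1.24.

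Of 30 PPARalpha-induced genes 25 were alike, or 83.3% against 90.4% over all genes, with a median of 0.28 and 23 positive values. Cyp4a10, Cyp4a31 and Acot3 were again chosen for being alike and 2-fold from the wild-type normal-diet array. Cyp4a10, a fatty acid hydroxylase, was at 5.24 in wild-type high-fat and 4.89 in knockout normal-diet liver, against 3.53 in wild-type normal-diet liver. Cyp4a31 was at 4.95 and 4.61 against 3.26, and Acot3, a peroxisomal thioesterase, at 0.76 and 0.31 against -1.67. The differences were 0.35, 0.34 and 0.45. Whether the probes of Cyp4a10 and Cyp4a31, with near-equal values, read separate transcripts was not tested. A pair of genes was higher in wild-type high-fat liver. Fgf21, a hormone secreted by the liver in fasting and under stress, was at -0.79 against -2.56, a difference of 1.77 ± 0.21, and followed diet, with -2.92 in wild-type normal-diet and 0.11 in knockout high-fat liver. Cyp4a14 was at 5.60 against 4.46, a difference of 1.14, and both were far above the 1.47 of wild-type normal-diet liver.

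None of the genes of the oxidation machinery was called, and the shares alike were near the 90.4% of all genes or above it. Of 24 mitochondrial fatty acid oxidation genes 23 were alike, or 95.8%, with a median of 0.07, and Cpt1a, the entry step for long-chain fatty acids, differed by 0.46 ± 0.06. Of 45 peroxisomal genes 44 were alike, or 97.8%, with a median of -0.05. The exception, Abcd2, a peroxisomal fatty acid transporter, differed by 0.99 ± 0.24 and was not called. All 34 oxidative phosphorylation genes were alike. Among 21 oxidases that make hydrogen peroxide 20 were alike and the median was 0.00, and among 29 antioxidant enzymes other than catalase 27 were alike, with a median of -0.05 and none called. The extracellular superoxide dismutase Sod3 and the plasma glutathione peroxidase Gpx3 had the largest values, 0.73 and 0.64 ± 0.21. Over NRF2 targets and glutathione genes, each read on its brightest probe, the median was -0.22, with 28 of 33 negative and 1 called. That gene was Gsta2, a glutathione transferase, at 3.96 against 5.35, with 4.20 in wild-type normal-diet and 4.90 in knockout high-fat liver. Its difference was -1.39, and it followed genotype. Gstt3, Gstm4 and Gstp1 had differences of -0.78, -0.72 and -0.71, and the other measured probe of Gstm4 gave -1.03. Hmox1, another gene of this list, was alike on the probe used, with a difference of -0.03 ± 0.21. Its other measured probe gave 3.08.

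**Figure D3:**
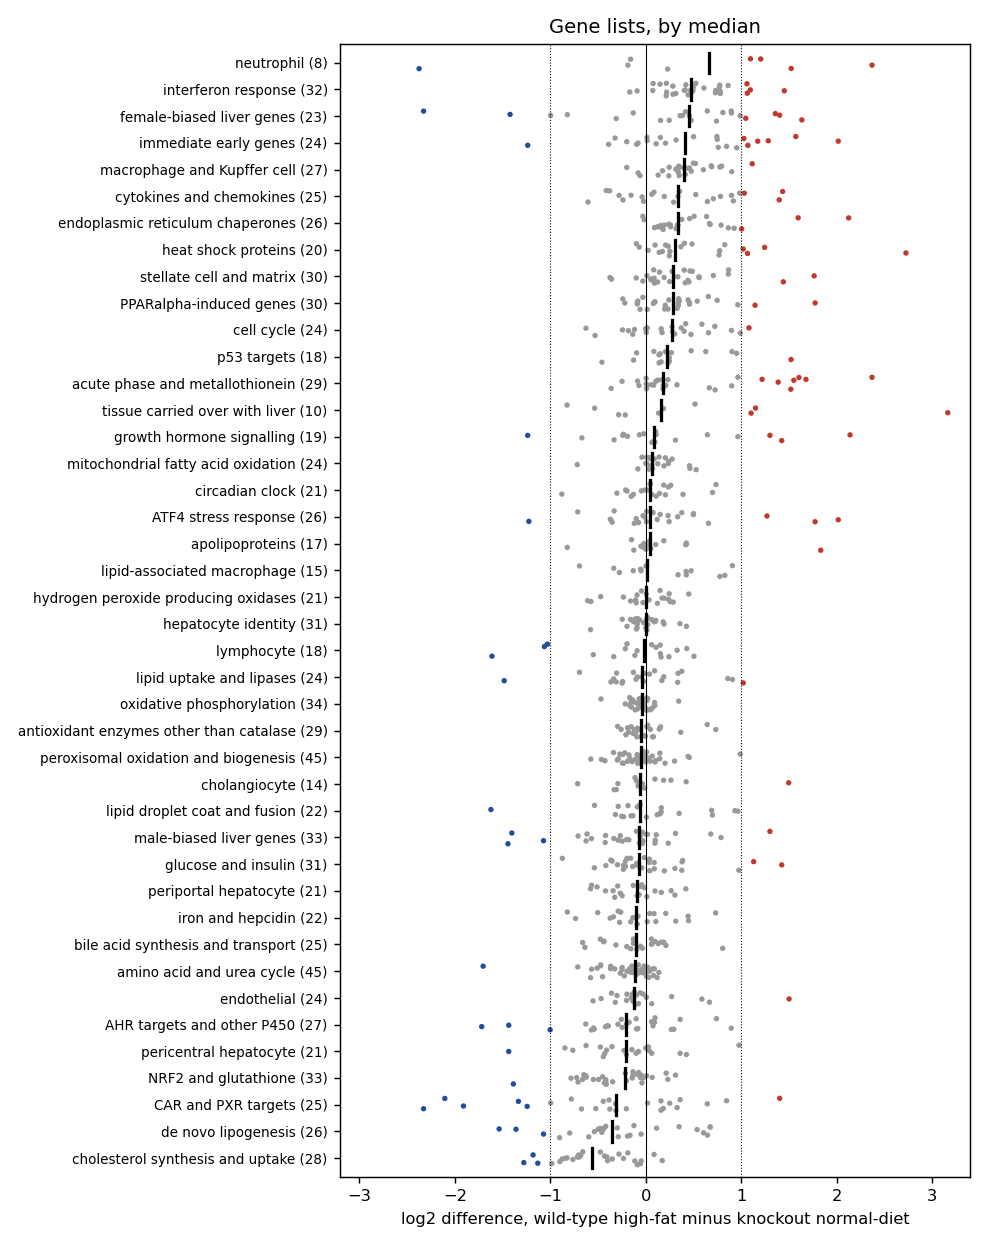
Log2 difference, wild-type high-fat minus knockout normal-diet (x axis), for the members of 42 gene lists measured on both arrays (rows, with the number of members). Points are genes, red and blue where they pass 2-fold, and black bars are list medians. Cholesterol synthesis has the lowest median, -0.57, and hepatocyte identity lies at 0.00.

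Targets of the xenobiotic receptors CAR and PXR included enzymes that were alike and enzymes that differed. Cyp2b10, the classical CAR target and chosen as the alike member that lay 2-fold from the wild-type normal-diet array, was at 4.37 in wild-type high-fat and 4.05 in knockout normal-diet liver, against -0.04 in wild-type normal-diet and 4.73 in knockout high-fat liver, and its difference was 0.33. Some Cyp3a genes differed and others did not. Cyp3a13 was alike, with a difference of 0.02, and Cyp3a25 had -0.67 and was not called. Cyp3a11, the main PXR target, was at 5.50 against 7.41, with 7.18 in wild-type normal-diet and 5.87 in knockout high-fat liver, so that both high-fat arrays were below both normal-diet arrays. The difference was -1.91, and -2.29 on the other probe. Cyp3a16, Cyp3a41b and Cyp3a59 were lower too, with differences of -2.33, -2.41 and -1.34. These genes are near-identical copies, so a probe may read more than 1 of them. Cyp2c55 was at -2.73 against -0.63, a difference of -2.11 ± 0.21, and that of Ces2a, a carboxylesterase, was -1.24. Cyp3a41b is not in the list of targets. Of the 25 measured targets in the list 5 were lower, 1 was higher and 14 were alike, with a median of -0.32. Over all genes tested 1.27% were lower and 1.93% higher.

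Genes with sex-biased expression in liver are controlled by growth hormone through STAT5. Of 33 male-biased genes 25 were alike, or 75.8%, with a median of -0.07. Hsd3b5, Slco1a1 and C8b were chosen among the alike members by the same rule. Hsd3b5, a steroid dehydrogenase, was at 4.15 in wild-type high-fat and 4.18 in knockout normal-diet liver, against 5.88 in wild-type normal-diet and 1.23 in knockout high-fat liver. Slco1a1, a transporter of bile acids and steroids, was at 2.11 and 2.16 against 3.18 and -0.32, and C8b, a complement component, at 4.38 and 4.56 against 5.60 and 3.23. Both compared livers thus lay between the other 2. Cyp4a12a, an androgen-dependent hydroxylase, was instead lower, at 2.70 against 4.14, a difference of -1.44, and so was Cyp4a12b, with -1.40. Whether the probes of these Cyp4a12 genes read separate transcripts was not tested. Socs2, a feedback inhibitor of growth hormone signalling, was at 1.22 against -0.08, higher by 1.30 ± 0.06, with both wild-type arrays above both knockout arrays. Moxd1 was measured on the wild-type high-fat array and not on the knockout normal-diet array, and was at least 3.6-fold higher. Its level was 1.52 in wild-type normal-diet and -3.63 in wild-type high-fat liver, so both compared livers lay far below wild-type normal-diet liver.

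Among 23 female-biased genes 9 were alike, 4 were higher and 2 lower, beside 1.93% and 1.27% of all genes tested, and the median was 0.46. Cyp2b9, which was not well above background in wild-type normal-diet liver, was at 0.22 in wild-type high-fat and -0.14 in knockout normal-diet liver, a difference of 0.36. It was named after its values were seen. Slc22a27, an organic anion transporter, was at 0.31 against -0.73, higher by 1.05, and Sult1e1, the oestrogen sulfotransferase, was higher by 1.40 ± 0.22, a call lost under some of the settings tried. Ntrk2, a neurotrophin receptor, was at -0.33 against 1.1, a difference of -1.42, with both knockout arrays above both wild-type arrays. Igfbp1, a binding protein of insulin-like growth factors that insulin represses, was at 4.77 against 3.35, a difference of 1.42, and was also high on both wild-type arrays.

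**Figure D4:**
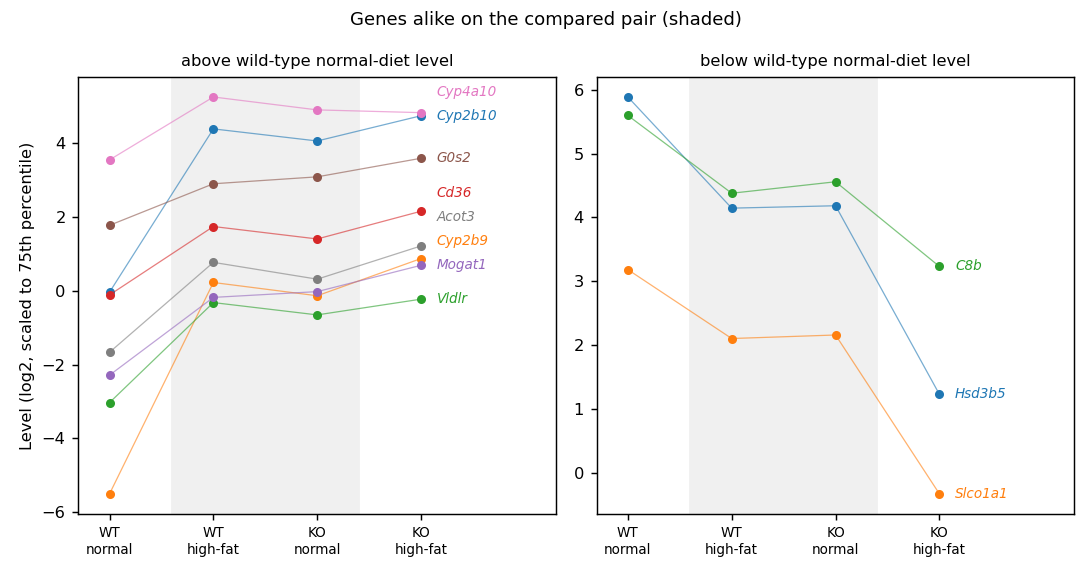
Levels (log2, scaled to the 75th percentile of the array, y axis) on the 4 arrays (x axis) of genes that are alike on the compared pair, which is shaded. Left, genes above the wild-type normal-diet level, where Cyp2b10 is at 4.37 and 4.05; right, genes below it, where Hsd3b5 is at 4.15 and 4.18 and drops to 1.23 in knockout high-fat liver.

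Counted over all genes, 38 genes were alike on the compared pair and at least 2-fold above the wild-type normal-diet array on both, and 48 were alike and at least 2-fold below it on both. Genes placed 2-fold above that array in 1 liver and 2-fold below it in the other numbered 2, both with wild-type high-fat above, and the opposite order gave 0. These counts use the wild-type normal-diet array on both sides, so its own error moves both livers the same way and they are no independent sign of likeness. For scale, the 461 genes called between the pair are 3.2% of those tested, against 4.09% between wild-type high-fat and wild-type normal-diet liver and 3.91% between the genotypes on normal diet, comparisons that share arrays with this one.

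Of 26 endoplasmic reticulum chaperones and their partners 3 were called higher in wild-type high-fat liver, beside 1.93% of all genes tested, 0 lower and 17 alike. The median was 0.33 and 24 values were positive. Derl3, a component of the machinery that removes misfolded proteins, was at 1.36 against -0.77, with 0.01 in wild-type normal-diet and 0.18 in knockout high-fat liver. Its difference was 2.12. Creld2, a chaperone that is secreted under stress, was at 5.35 against 3.76, with 4.92 and 4.3 on the other arrays, and its difference was 1.59 ± 0.07. Hspa5, the central chaperone BiP, was at 6.70 against 5.70, with 6.35 and 5.65, and its difference was 1.00. For Creld2 and Hspa5 both wild-type arrays were above both knockout arrays, whereas for Derl3 the wild-type high-fat array stood apart. Hspa5 lay at the threshold and did not keep 2-fold under every setting tried. Pdia3 and Dnajb9 had differences of 0.92 and 0.86.

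The promoters of the 3 called genes are shown because each holds an endoplasmic reticulum stress element, the motif that the stress factors ATF6 and XBP1 are known to use. The sequences are 300 bases around the start site from RefSeq, assembly GRCm38.p6, 5′ to 3′, with the element in capitals. It was searched on both strands as CCAAT and CCACG with 9 bases between them, so on the opposite strand it reads CGTGG, 9 bases, ATTGG.
Derl3 (chr10:75893148-75893447, + strand): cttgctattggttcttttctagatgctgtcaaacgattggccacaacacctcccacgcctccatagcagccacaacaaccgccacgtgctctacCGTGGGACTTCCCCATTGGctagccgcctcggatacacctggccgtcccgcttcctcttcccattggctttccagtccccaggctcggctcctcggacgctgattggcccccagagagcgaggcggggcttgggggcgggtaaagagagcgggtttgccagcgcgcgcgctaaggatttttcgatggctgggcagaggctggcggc
Creld2 (chr15:88819396-88819695, + strand): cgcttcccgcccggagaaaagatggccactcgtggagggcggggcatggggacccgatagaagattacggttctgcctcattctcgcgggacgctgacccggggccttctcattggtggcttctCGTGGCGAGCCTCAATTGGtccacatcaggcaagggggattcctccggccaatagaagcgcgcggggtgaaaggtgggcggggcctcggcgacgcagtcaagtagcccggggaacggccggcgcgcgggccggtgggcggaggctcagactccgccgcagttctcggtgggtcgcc
Hspa5 (chr2:34771840-34772139, + strand): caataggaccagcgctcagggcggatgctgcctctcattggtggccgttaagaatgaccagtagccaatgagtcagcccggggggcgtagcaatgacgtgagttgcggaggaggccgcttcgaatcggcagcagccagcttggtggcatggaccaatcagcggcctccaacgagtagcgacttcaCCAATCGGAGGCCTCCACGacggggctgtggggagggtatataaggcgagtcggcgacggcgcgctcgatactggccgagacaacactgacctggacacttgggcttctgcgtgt
In Derl3 and Creld2 the element lies on the opposite strand and in Hspa5 on the strand shown. Of the 21 measured chaperone genes matched to a promoter 10 held the element, which is 47.6%, against 0.137% of 27025 genes with a promoter in the table. Promoters of a single chromosome were left out of both counts. The list was chosen for its known function, so this share is a description and not a test. Other motifs were searched in other lists. A sterol element was found in 1 of 20 cholesterol and 1 of 22 lipogenesis genes, and a heat shock element in 3 of 14 heat shock genes. Within the list the size of the difference did not go with the match, with a median of 0.32 for the 10 with it and 0.46 for those without it. Pdia3 and Dnajb9 have no match in this window. A match is a description of the letters and not a measured binding site.

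Heat shock proteins gave a similar picture, with a median of 0.31, 18 of 20 positive and 4 called higher, beside 1.93% of all genes tested. Hspa1a, the inducible chaperone HSP70, was at -0.75 against -3.47, a difference of 2.72 ± 0.23, and the knockout high-fat array was at -3.59. Hspb1, a small heat shock protein, was higher by 1.24, Hsph1 by 1.07 and Serpinh1, a collagen chaperone, by 1.02. The calls of Hsph1 and Serpinh1 were lost under some of the settings tried. Immediate early genes, which respond within minutes to growth signals and stress, had 8 of 26 tested members called higher and 1 lower, with a median of 0.41 over 24. The shares over all genes tested were 1.93% and 1.27%. Gadd45g was at 5.19 against 3.62 and Egr1 at 1.01 against -0.27, with both wild-type arrays above both knockout arrays. Atf3 was higher by 2.02 ± 0.25, but was at -1.51 in knockout high-fat liver, above the -1.75 of wild-type high-fat liver. Ier2 was lower, with a difference of -1.24, and Junb differed by -0.10.

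Markers of inflammation were higher in wild-type high-fat liver more often than lower. Of 29 acute phase and metallothionein genes 7 were higher and 0 lower, beside 1.93% and 1.27% of all genes tested, with a median of 0.18. Lcn2, which binds bacterial siderophores, was at 2.87 against 0.50, a difference of 2.37, with 0.87 in wild-type normal-diet and 5.07 in knockout high-fat liver. Saa2, a serum amyloid protein, was at 5.92 against 4.32, a difference of 1.60, and here the knockout normal-diet array was the lowest of all 4. Saa1 and Steap4 were higher by 1.55 and 1.68. The metal-binding genes Mt2 and Mt1 were higher by 1.52 and 1.22, at 7.02 against 5.50 and at 7.36 against 6.14, and the low values were on both knockout arrays.

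Interferon-response genes leaned the same way, with 30 of 32 positive, a median of 0.47 and 4 higher. Over all genes tested, the background for this list and for the cytokines below, 1.93% were higher. Isg15, a ubiquitin-like modifier, was at 2.53 against 1.08, with 1.54 in wild-type normal-diet and 1.72 in knockout high-fat liver, a difference of 1.45. Ifi44, Rsad2 and Ifit1 had differences of 1.09, 1.06 and 1.06, each ± 0.21, and were under 2-fold in some settings. With normexp background correction 1 gene of this list was higher. Of 25 measured cytokine genes 3 were higher, with a median of 0.34: Ccl2, a monocyte attractant, by 1.43 ± 0.07, Cxcl1, a neutrophil attractant, by 1.40, and Cxcl10, which lost its call under some settings, by 1.03. Ccl2 and Cxcl1 were not highest in the wild-type high-fat liver. Ccl2 was at -0.24, -1.02, -2.46 and -0.09 in the order wild-type normal-diet, wild-type high-fat, knockout normal-diet and knockout high-fat, and Cxcl1 at 3.61, 2.23, 0.83 and 1.36. In both the knockout normal-diet array was the lowest.

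Cell type markers were read beside these lists. In bulk liver, fewer cells of a type and less RNA per cell cannot be told apart. Hepatocyte identity did not separate the livers, with 31 of 31 genes alike, and a difference of 0.01 for each of Alb, Ttr and Hnf4a. Of 27 macrophage and Kupffer cell genes 24 were positive, the median was 0.40, 1 was higher and 20 were alike. The median level of the list was 0.62 in wild-type normal-diet, 0.90 in wild-type high-fat, 0.29 in knockout normal-diet and 1.79 in knockout high-fat liver. Its defining markers Adgre1, Clec4f, Vsig4, Csf1r and Timd4 had differences of 0.52, 0.50, 0.44, 0.24 and 0.13, all alike by the rule. Marco, a scavenger receptor, was at 1.31 against 0.19, a difference of 1.11, beside 3.94 in knockout high-fat liver. The part of these cells in the inflammatory lists was not tested.

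The neutrophil list was mixed. S100a8, S100a9 and Retnlg were higher by 1.20 ± 0.21, 1.1 and 1.52 ± 0.35, whereas Cxcr2, a chemokine receptor, was lower with a difference of -2.38 ± 0.30 and Mpo was at least 3.3-fold lower. Of 10 tested members 4 were higher and 3 lower, 2 of them by bounds, and the call of Retnlg was lost under some settings. Over all genes tested, the background for this and the next lists, 1.93% were higher and 1.27% lower. Of 18 measured lymphocyte genes 3 were lower, the B cell and plasma cell genes Ms4a1, Cd79b and Mzb1, with differences of -1.61 ± 0.36, -1.06 ± 0.21 and -1.03 ± 0.09, each of which lost 2-fold under some of the settings tried, and Cd3e of T cells differed by 0.15. Of 30 stellate cell and matrix genes 26 were positive and 26 alike, with a median of 0.29 and 3 called higher, 1 of these by a bound. Col1a1, the main fibrillar collagen, was at -0.75 against -2.51, a difference of 1.76, with -1.88 in wild-type normal-diet and 0.24 in knockout high-fat liver. Timp1, whose product blocks matrix proteases, was higher by a factor of at least 3.9, and the stellate markers Lrat and Acta2 had 0.56 and -0.38. Of 24 endothelial genes 20 were alike with a median of -0.13, and 1 was higher, Lyve1 by 1.5 ± 0.21. Tff3, a mucosal peptide in the cholangiocyte list, was higher by 1.5 ± 0.22, a call also lost under some settings, while Krt19 differed by 0.19.

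The list kept for blood, adipose, pancreas and muscle tissue carried over with the liver had 3 of 10 measured genes higher, beside 1.93% of all genes tested. Hba-a1 and Hbb-bt, haemoglobin chains, were at 5.27 and 4.65 in wild-type high-fat liver against 4.17 and 3.50, higher by 1.1 and 1.15, and the wild-type high-fat array was the highest of all 4 for both. Other red cell genes gave 0.51 for Slc4a1 and -0.54 for Alas2. Cfd, the adipocyte protease adipsin, was at 1.71 against -1.45, a difference of 3.16, with -1.10 in wild-type normal-diet and 2.14 in knockout high-fat liver. The adipocyte genes Adipoq and Lep were not well above background on either array of the pair, and Retn, another adipocyte gene, differed by -0.83 ± 0.25.

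Outside the lists, the largest differences included several that belonged to 1 array. Syt10, a calcium sensor of secretory vesicles, was at 2.0 in wild-type high-fat liver and -4.20 in knockout normal-diet liver, with -2.65 and -2.86 on the wild-type normal-diet and knockout high-fat arrays. Its difference was 6.16 ± 0.24. Dnm1, the neuronal dynamin, was at 0.75 against -4.3, a difference of 5.05 ± 0.25, but its other probe gave -0.18. Fthl17a was higher by 3.42 ± 0.34, Pcdh15 by 2.43 ± 0.32 and Rgs9, whose other probe gave -0.09, by 2.24 ± 0.26. In all 5 the wild-type high-fat array stood apart from the other 3, and Pcdh15 and Rgs9 lost 2-fold under some settings. Chmp4b, a membrane-scission protein, was the mirror case, at 1.42 against 3.51 with 3.51 and 3.70 elsewhere, a difference of -2.09, but its other probes gave -0.53 and -0.56.

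Genes for which the knockout normal-diet array stood apart included Cd200r1, an inhibitory receptor of myeloid cells, at -2.10 against -4.98, a difference of -2.88 ± 0.31, and Nek2, a mitotic kinase, at -1.78 against -4.51, a difference of -2.73 ± 0.27. Tafa2, Fgl2 and Rhox5 had differences of -2.35 ± 0.22, -1.98 ± 0.26 and -1.74 ± 0.21. All 5 were dim, at -1.03 to -2.43 in knockout normal-diet liver and lower elsewhere. Among genes measured on only 1 of the arrays, the largest bounds were at least 13.5-fold higher for Map1a and at least 12.5-fold higher for Fam205a2, and at least 15.2-fold lower for Olfr224 and at least 12.4-fold lower for Rragd, a GTPase of amino acid sensing. Rragd was at -1.76 in knockout normal-diet liver and at -5.31, -5.41 and -5.79 on the wild-type normal-diet, wild-type high-fat and knockout high-fat arrays. Adh6a, an alcohol dehydrogenase, was at least 10.5-fold lower in wild-type high-fat liver, at -2.01 in knockout normal-diet liver and -3.61 in wild-type normal-diet liver.

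**Figure D5:**
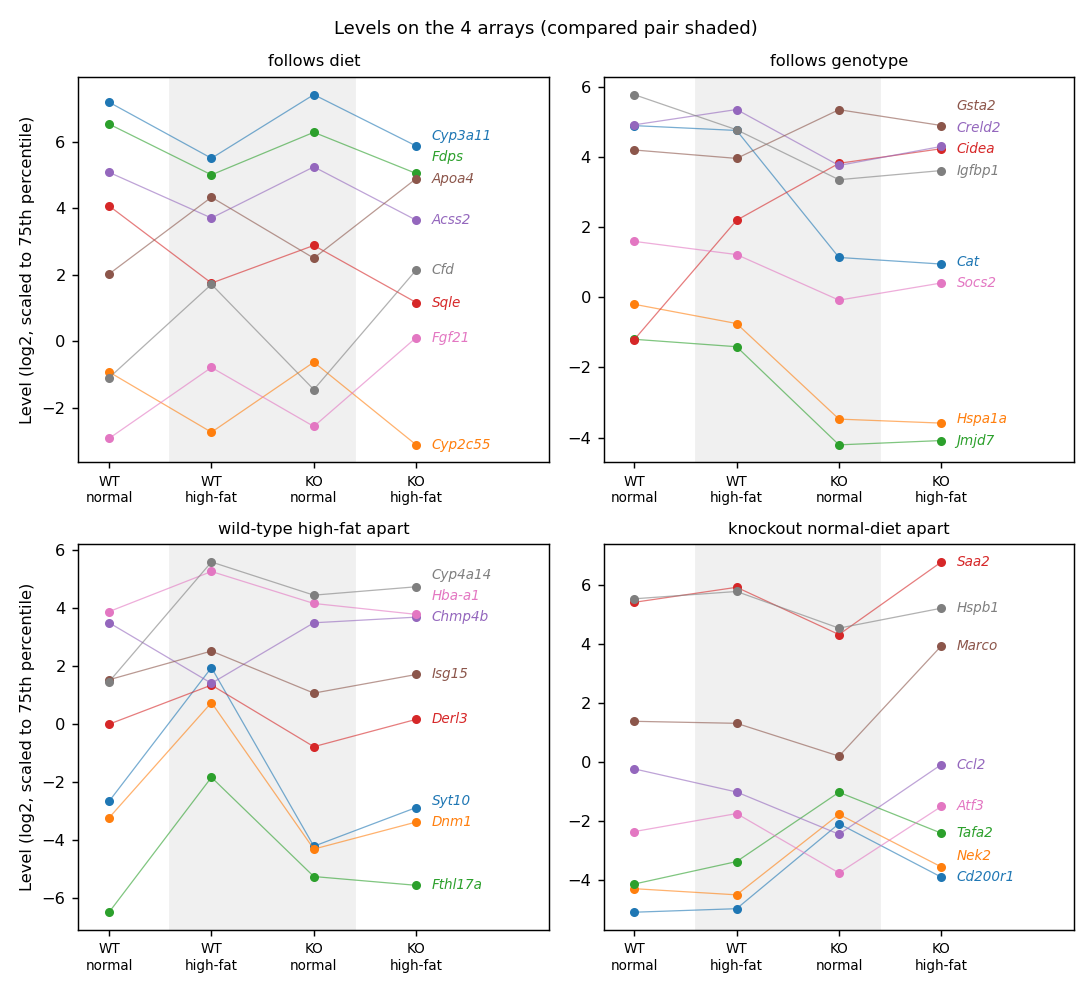
Levels (log2, scaled to the 75th percentile of the array, y axis) on the 4 arrays (x axis) of 8 genes from each class, with the compared pair shaded. In some, such as Cyp4a14 and Cidea, the wild-type normal-diet level lies beyond both compared levels. Lines join the values of a gene and imply no order; Cyp3a11 and Apoa4 move with diet, Cat and Gsta2 with genotype, Syt10 stands apart in wild-type high-fat liver and Cd200r1 in knockout normal-diet liver.

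A few further metabolic genes followed diet. Csad, a taurine synthesis enzyme, was at 2.11 against 3.81, with 4.46 in wild-type normal-diet and 2.68 in knockout high-fat liver, a difference of -1.70. Asns, the asparagine synthetase and a target of the stress factor ATF4, was at -2.22 against -0.99, a difference of -1.23 ± 0.21. It was at 0.23 in wild-type normal-diet and -1.72 in knockout high-fat liver. The knockout high-fat position of Asns, 0.59, lay near the midpoint, and its knockout normal-diet level was also below the wild-type normal-diet level. Of 45 amino acid and urea cycle genes 43 were alike, with a median of -0.12, so Csad was the 1 called member of that list. Slc13a2, a dicarboxylate transporter, was at -3.84 against -1.99, a difference of -1.85 ± 0.24. Cyp1a2, a target of the aryl hydrocarbon receptor, was at 2.45 against 3.89, a difference of -1.44, with both high-fat arrays below both normal-diet arrays. Cdkn1a, the cell cycle inhibitor p21, was at -0.45 against -1.97, a difference of 1.52 ± 0.07, with both high-fat arrays above both normal-diet arrays, and it lost 2-fold under some settings.

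Several genes that follow genotype lie on the chromosome of Cat. Of the 54 genes that follow genotype 13 are on that chromosome in the RefSeq table, which is 24.1%, against 9.73% of the 226 genes of the other classes and 7.83% of the 13675 measured genes. Besides Cat they are Jmjd7, Ccdc141, Cd59a, Cd59b, Pfkfb3, Chp1, Bmf, Nr4a2 and Hspa5, which were higher in wild-type high-fat liver, and Ganc, Exd1 and Chst14, which were lower. Jmjd7, a lysyl hydroxylase, was at -1.41 in wild-type high-fat and -4.21 in knockout normal-diet liver, with -1.20 and -4.08 on the wild-type normal-diet and knockout high-fat arrays. The wild-type pair and the knockout pair did not overlap, and the difference was 2.80 ± 0.25. Chst14, a sulfotransferase, had a difference of -1.54 ± 0.22, and Pfkfb3, a regulator of glycolysis, was higher by 1.13, a call lost under some settings, as was that of Hspa5. The genetic background of the knockout line is not stated in the labels, and its part in these values was not tested.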

How the data were processed

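Total liver RNA was labelled with Cy3 and read on 1-colour Agilent 44K mouse arrays, 1 array per group. Per the file headers, the deposited spot intensity values come from Feature Extraction 11.5.1.1 and include a background-subtracted processed signal. Values were extracted with GeneSpring GX 7.3, per the series' design text. The authors' deposited value table holds intensity on a linear scale without centring, which was found by comparison: 99.6% to 99.7% of its values lay within 1% of the scanner signal, and its medians ran from 72.38 to 89.16. All arrays lay on 1 slide.

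Control spots and outlier-flagged spots (98 to 186 per array) were left out, log2 processed signals were averaged per probe, and the 75th percentile of each array was subtracted. A RefSeq table (GRCm38.p6) named 27502 probes by accession and left 11927 unnamed. Each of 20882 genes, 5510 of them with several probes, was represented by its brightest probe. For a bound only, a gene not well above background on an array was set there to the higher of its own signal and the lowest signal of any probe above background. Printed levels, differences and class positions keep its own signal. The number of arrays limits the precision, and no p-value is given for a pair of arrays.

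The comparison, the 42 gene lists and the named genes were chosen with earlier results of these data known. The named genes are Cat, the 15 largest differences each way that held 2-fold under 3 other scalings and normexp, the 5 largest bounds each way, up to 4 members per list, and alike members of 6 lists that lay 2-fold from wild-type normal-diet liver; not all are printed. A few others were named after their values were seen, and so were the genes quoted to describe a list or a marker. Alternatives were 3 scalings, normexp with offset 50 (on the median spot signal, since the mean spot signal is not used here), the value table, the mean of probes, all spots, other fold sizes and an additive limma model. The classes by position and their alternatives were added after seeing the data. Tools were limma 3.58.1 in R 4.3.3, Python 3.11.15, numpy 2.4.6, pandas 2.3.3 and matplotlib 3.10.9. Calling by size was tested on simulated data.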

Additional observations from a re-analysis of the deposited data

How the results depend on the processing

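The counts of 278 higher and 183 lower genes depended on the treatment of dim signal, on the size rule and on the use of a fitted test. They were 110 and 88 with normexp background correction, 172 and 108 without bounds, 795 and 572 at 1.5-fold, 94 and 68 at 3-fold, and 0 and 0 in the additive limma model of 14343 genes after Benjamini-Hochberg adjustment, where 379 and 378 had an unadjusted p under 0.05. Scaling to the median, quantile and cyclic loess normalization, the authors' value table, the mean of probes and all spots kept gave 248 to 278 higher and 172 to 201 lower genes. The number of alike genes was 11692 to 13050 over all settings, against 12363. Over 193 named genes and 7 settings, 0 of 1351 differences changed sign and 1262 moved by less than the scanner error. Of 88 named genes at 2-fold on both arrays, 65 kept it in all 7 settings; those that did not include Fabp2, Sult1e1, Cyp2a22, Lipe, Hspa5, Hsph1, Serpinh1, Pfkfb3, Cdkn1a, Cxcl10, Ifi44, Rsad2, Ifit1, Retnlg, Ms4a1, Cd79b, Mzb1, Tff3, Pcdh15 and Rgs9. With normexp, 54 genes followed diet, 36 followed genotype, 26 set wild-type high-fat and 29 set knockout normal-diet liver apart, and under the other settings these were 81 to 86, 49 to 56, 64 to 67 and 69 to 82. Of 336 list medians 334 moved by less than 0.20, and the other 2 were of the neutrophil list. No paired analysis was possible because each group has 1 array. No array could be left out for the same reason.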
